A study of Homo sapiens with 15 samples.

Results

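The genes described here make and use microRNAs. They are the 10 genes of the canonical pathway named on the array as RNASEN, DGCR8, XPO5, DICER1, TARBP2, PRKRA and EIF2C1 to EIF2C4, and all probes carrying one of these gene names were taken. This gave 15 probes of 10 genes, out of 41000 probes of 30484 gene names on the array. RNASEN is the older name of DROSHA, and EIF2C1, EIF2C2, EIF2C3 and EIF2C4 are those of AGO1, AGO2, AGO3 and AGO4. The samples were A549 cells, an established human lung adenocarcinoma line, transfected with a synthetic precursor of 1 miRNA (mimic) or with an antisense oligonucleotide against the same miRNA (antagomir). The 5 miRNAs examined, called radiation-responsive in the labels, were miR-181d and miR-766, then miR-565 and miR-629*, and miR-574-3p. The labels give an oligonucleotide dose of 20 nM and RNA extraction at 24 h, with 3 dual-color arrays per miRNA and 15 arrays in all. On every array the mimic sample was labeled with Cy5 and the antagomir sample with Cy3, and no array held untransfected or control-transfected cells. The arrays are numbered as replicates without a statement that they come from separate transfections, so p-values measure the spread between arrays, which may be technical.

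A miRNA begins as a long primary transcript. In the nucleus, DROSHA and its RNA-binding partner DGCR8 cut out the hairpin precursor, and exportin-5, the product of XPO5, carries it to the cytoplasm. DICER1, with TARBP2 or PRKRA (PACT) at its side, trims the hairpin to a duplex. One strand is then held by an Argonaute protein, which finds mRNAs mainly through the seed of the miRNA, and Argonaute 2 is the family member known to cleave a matched target. Transfected mimics and antagomirs meet at this last step. The miRNA of a mimic is loaded into Argonaute, and an antagomir binds a miRNA that is already there. Whether the precursors transfected here first needed trimming by DICER1 was not examined. The mature sequences of 3 of the transfected miRNAs are held by the RefSeq annotation of GRCh38.p14. They are shown because they tell apart the oligonucleotides that the arrays compare. Capitals mark the seed, bases 2 to 8, and the 3 seeds differ.
hsa-miR-181d-5p: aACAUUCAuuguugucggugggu
hsa-miR-574-3p: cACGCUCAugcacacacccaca
hsa-miR-629-3p (labeled miR-629*): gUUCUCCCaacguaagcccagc
The loci are chr19:13874910-13874932 on the plus strand for miR-181d, chr4:38868092-38868113 on the plus strand for miR-574-3p, and chr15:70079387-70079408 on the minus strand for miR-629*. The sequences are reference sequences, and the exact bases of the transfected oligonucleotides were not used here.

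All 10 genes were detected in A549 cells. Of the 15 member probes, 13 were well above background in both channels on all 15 arrays. A second EIF2C1 probe was dim, with a mean signal of 11.1 in the mimic channel, and was above background on 13 of 15 antagomir arrays. One of the 3 EIF2C4 probes was above background on 1 array and was not tested, which left 14 tested probes. Where a gene had more than 1 probe, values are those of its brightest probe unless another is named. EIF2C4, EIF2C1 and EIF2C3 are neighbors on chromosome 1, where their brightest probes lie at chr1:36095690-36095749, chr1:36162281-36162340 and chr1:36294139-36294198 (NCBI36, plus strand, as in the array files). The longest run of bases that probes of different member genes shared was 10.

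In the mimic channel, the share of probes well above background was 68.1% to 75.5% per array. The 15 arrays lay on 4 slides. Slide 2 held arrays of miR-565 and miR-574-3p, slide 3 held arrays of miR-574-3p and miR-629*, miR-565 replicate 1 lay with miR-181d on slide 1, and miR-766 was alone on slide 4, where slide and miRNA cannot be told apart. All 5 epithelial markers were above background on all arrays and none of 3 endothelial markers was on any, while 2 of 4 leukocyte markers and 1 of 4 fibroblast markers were above background on all arrays. The log2 ratios of miR-565 replicate 1 correlated with those of the other 14 arrays at r = 0.0082 to 0.46 over 31357 probes, against 0.22 to 0.72 for replicate pairs among the other arrays. Its median log2 ratio was 0.12, whereas those of the other 14 arrays were -0.048 to 0.0077. Results on the ratio are therefore given with and without this array.

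The 2 Argonaute genes EIF2C2 and EIF2C3 were lower in cells that had received the miR-574-3p antagomir than in cells that had received an antagomir of another miRNA. The comparison was made within the Cy3 channel, so the dye is the same on both sides, after quantile normalization of that channel. Each of the 2 genes has 1 probe on the array, so no second probe could be compared. EIF2C2 encodes the Argonaute with slicing activity. Its log2 antagomir signal was 10.16, 10.06 and 10.09 on the 3 miR-574-3p arrays. On the 12 arrays of the other miRNAs it ranged from 10.30 to 10.44 with a median of 10.33, and the groups did not overlap. The difference was -0.25 (standard error 0.037, 95% interval -0.32 to -0.17), or 0.843-fold (limma adjusted p = 0.000261). For EIF2C3, which encodes Argonaute 3, the antagomir signal was 8.41, 8.56 and 8.66 on the miR-574-3p arrays. The other 12 arrays ranged from 8.62 to 9.14 with a median of 8.85, and 1 of them, a miR-766 array, lay below the highest miR-574-3p value. EIF2C3 differed by -0.33 (standard error 0.065, 95% interval -0.47 to -0.19), or 0.798-fold (limma adjusted p = 0.00368). In this comparison 8.5% of all 23007 genes tested were called and 4.17% were called lower, beside 2 of the 10 member genes. Less RNA per cell and a change in the mixture of cells cannot be told apart in such bulk samples.

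**Figure D1:**
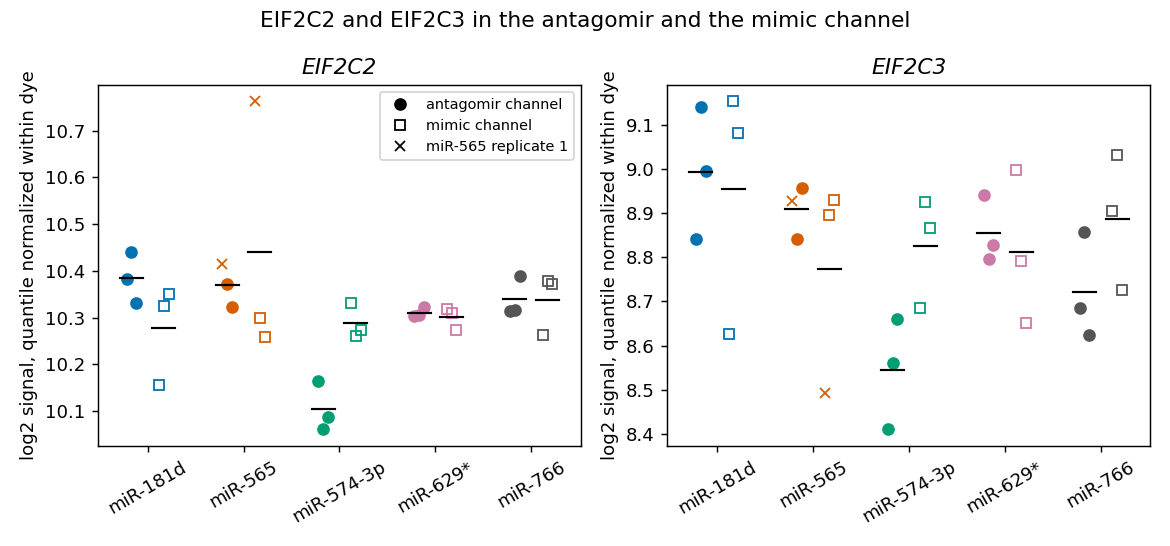
Log2 signal of EIF2C2 (left) and EIF2C3 (right) after quantile normalization within each dye, by miRNA; filled points are antagomir (Cy3) samples, open squares mimic (Cy5) samples, crosses miR-565 replicate 1, and bars the means of 3 arrays. The miR-574-3p antagomir points sit at 10.06 to 10.16 for EIF2C2, below all the other antagomir points, and at 8.41 to 8.66 for EIF2C3.

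The same transcripts did not stand out in the mimic channel. Against the mimics of the other miRNAs, the miR-574-3p mimic samples differed by -0.051 for EIF2C2 (95% interval -0.24 to 0.14, limma adjusted p = 0.987) and by -0.031 for EIF2C3 (95% interval -0.30 to 0.24, limma adjusted p = 0.987). Whether the 2 channels differ in this respect is tested by the ratio. In miR-574-3p it exceeded the average ratio of the other 4 by 0.19 for EIF2C2 (limma adjusted p = 0.431) and 0.30 for EIF2C3 (limma adjusted p = 0.231) with all arrays. Without miR-565 replicate 1 these differences were 0.23 (standard error 0.046, limma adjusted p = 0.0095) and 0.27 (standard error 0.066, limma adjusted p = 0.0324), where 5.75% of all genes were called, and these were the 2 member pairs called of 50. In that comparison the share of all genes called was 0.148% for miR-766, 0.526% for miR-181d, 0.265% for miR-629* and 0.204% for miR-565. Within slides the antagomir difference kept its sign. Against miR-565 on slide 2 it was -0.23 for EIF2C2 and -0.41 for EIF2C3, with 2 arrays of each miRNA. Against miR-629* on slide 3 it was -0.22 and -0.19, with 1 array against 3. The 2 other Argonaute genes did not pass the test there. EIF2C1 differed by 0.037 (limma adjusted p = 0.619) and EIF2C4 by 0.030 (limma adjusted p = 0.811) in the miR-574-3p antagomir samples, with 95% intervals that the plot of antagomir differences shows beside those of the other genes.

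In the order of the antagomir signals as deposited, EIF2C2 averaged 1119 ± 37.7 (SD, n = 3 arrays) for miR-574-3p, 1145 ± 175 for miR-629*, 1293 ± 209 for miR-766, 1403 ± 73.2 for miR-181d and 1418 ± 248 for miR-565. On this scale the neighboring miRNAs in the order did not differ beyond their spread. EIF2C3 averaged 384 ± 57.1 for miR-574-3p, 419 ± 84.1 for miR-629*, 430 ± 84.5 for miR-766, 504 ± 64.8 for miR-565 and 537 ± 75.3 for miR-181d, again with overlapping spreads between neighbors. After quantile normalization within the dye, EIF2C2 had its lowest mean with miR-574-3p, 10.10, while the other 4 averaged 10.35.

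Among the other member genes, DGCR8 differed in the antagomir channel of 2 miRNAs. Its brightest probe was higher in the miR-181d antagomir samples than in those of the other miRNAs, by 0.25 (standard error 0.052, limma adjusted p = 0.0265), where 2.09% of all genes were called. The signals were 10.46, 10.62 and 10.34 on the miR-181d arrays and 9.98 to 10.39 on the other 12, 2 of which lay above the lowest miR-181d array. In the miR-565 antagomir samples DGCR8 was lower, by 0.27 on the log2 scale (a difference of -0.27, standard error 0.052, limma adjusted p = 0.0111), beside 2.81% of all genes called. The signals there were 10.09, 10.12 and 9.98, and 1 of the other 12 arrays lay below the highest of them. With the mean of both DGCR8 probes, neither difference passed the test, at 0.16 (limma adjusted p = 0.0824) and -0.13 (limma adjusted p = 0.167). The miR-181d call was also lost without miR-181d replicate 1 (0.25) or replicate 2 (0.17), with no filter on dim probes and with no intensity trend, and the miR-565 call without miR-565 replicate 3 (-0.23) and with medians in place of quantile normalization (-0.15). Of the 50 pairs of a member gene and a miRNA in the antagomir channel, 4 passed the test, 1 higher and 3 lower. An unadjusted p under 0.05 was found for 13 pairs, beside 2961 to 5090 of 23007 genes per miRNA. For miR-629* and miR-766 no member gene passed, beside 0.869% and 4.31% of all genes. Without miR-565 replicate 1 the same 4 pairs were called, beside 1.27% of all genes for miR-181d, 1.04% for miR-565, 7.52% for miR-574-3p, 0.617% for miR-629* and 3.17% for miR-766.

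**Figure D2:**
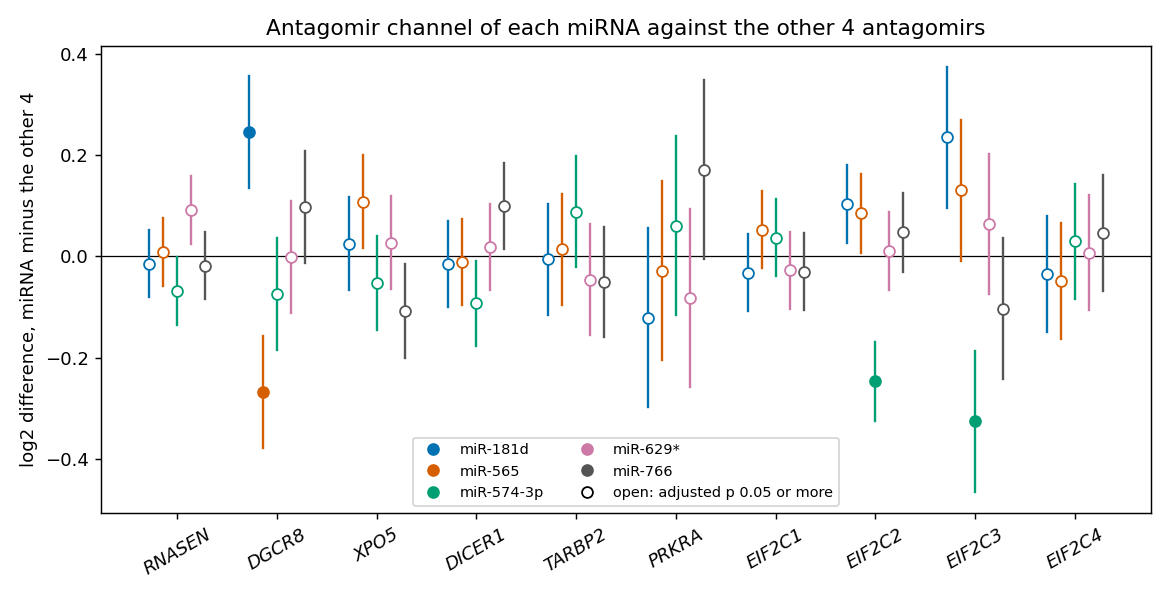
Difference in log2 antagomir signal between each miRNA and the mean of the other 4 (y axis) for the 10 member genes (x axis); points are limma estimates, bars 95% intervals, and filled points have an adjusted p under 0.05. The 4 filled points are EIF2C2 and EIF2C3 for miR-574-3p, at -0.25 and -0.33, and DGCR8 for miR-181d and miR-565, at 0.25 and -0.27.

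Between the mimics, no member gene passed the test for any miRNA, with 0 of 50 pairs called in limma. An unadjusted p under 0.05 was found for 2 pairs, beside 448 to 4462 of 23007 genes per miRNA. The differences lay between -0.71, for DGCR8 with miR-565, and 0.38, for DGCR8 with miR-574-3p. Both were estimated with a standard error of 0.30, and they include miR-565 replicate 1. Without that array 0 of 50 pairs were called and 0 had an unadjusted p under 0.05, beside 531 to 2293 of 23005 genes per miRNA. Of all genes, 0.313% were called for miR-766 and 0% for the other 4 miRNAs with all arrays. Without the array these shares were 0.439% for miR-766, 0.0391% for miR-574-3p, 0.00435% for miR-565 and 0% for miR-181d and miR-629*.

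The main contrast of the study is the ratio of mimic over antagomir within an array. With all 15 arrays, 0 of 50 pairs of a member gene and a miRNA were called in limma. An unadjusted p under 0.05 was found for 10 pairs, beside 3895 to 8531 of 23007 genes per miRNA. Of all genes, 6.36% were called for miR-181d, 14.3% for miR-565, 5.47% for miR-574-3p, 10.7% for miR-629* and 2.3% for miR-766. The ratios were small. Over the 70 pairs of a tested probe and a miRNA, the largest fold in either direction was 1.62, and 0 had a ratio under 0.5 or over 2 together with a signal of at least 20 and an unadjusted p no higher than 0.001. The median standard error of a member's log2 ratio was 0.083. Against the mean ratio of the other miRNAs, 0 of 50 pairs were called. An unadjusted p under 0.05 was found for 3 pairs, beside 583 to 4047 of 23007 genes per miRNA. The share of all genes called in this comparison was 1.23% for miR-574-3p, 0.113% for miR-565, 0.0478% for miR-629*, 0.00869% for miR-766 and 0% for miR-181d.

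Without miR-565 replicate 1, 13 of 50 pairs were called, 11 higher and 2 lower in the mimic samples, and the background rose to 28.2% for miR-181d, 16.3% for miR-565, 23.1% for miR-574-3p, 36% for miR-629* and 19.5% for miR-766. The estimates of the other 4 miRNAs are the same with and without that array by construction, and the standard errors were smaller without it, for DICER1 in miR-574-3p 0.058 in place of 0.22. Of the 13 pairs, 6 belonged to miR-574-3p, all higher in the mimic samples, where 12.1% of all genes were called higher. EIF2C3 had a log2 ratio of 0.28, 0.37 and 0.21 on the 3 miR-574-3p arrays. They averaged 0.29 (standard error 0.058, limma adjusted p = 0.00364). For DICER1, which cuts the precursor hairpin, the ratios were 0.30, 0.16 and 0.32, averaging 0.26 (standard error 0.058, limma adjusted p = 0.00621). Its other probe had a mean of -0.040 on these arrays (limma adjusted p = 0.724), so the 2 probes of DICER1 disagree here. EIF2C2 had ratios of 0.16, 0.20 and 0.18, which average 0.18 (limma adjusted p = 0.00662). RNASEN, the nuclear processing enzyme, stood at 0.18 (limma adjusted p = 0.00248), XPO5 at 0.16 (limma adjusted p = 0.0124) and EIF2C1 at 0.11 (limma adjusted p = 0.0249). Over all 10 member genes the median log2 ratio for miR-574-3p was 0.16, with 8 of 10 above 0, while the median over all genes was 0.0079. The share of all genes above 0 was not counted. EIF2C1, XPO5 and RNASEN were above 0 on 14, 13 and 13 of the 14 arrays of all miRNAs. A ratio common to the miRNAs cannot be told apart from a dye effect. Against the other 4 miRNAs, only EIF2C2 and EIF2C3 were called for miR-574-3p.

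For the remaining miRNAs the calls without that array were fewer. In miR-181d, EIF2C1 and RNASEN were higher in the mimic samples, by 0.12 and 0.13, and EIF2C2 was lower with a log2 ratio of -0.12 (limma adjusted p = 0.0492). EIF2C2 thus lay on opposite sides of 0 in miR-181d and miR-574-3p, with ratios of -0.23, -0.13 and 0.013 in the former. In miR-629*, EIF2C1 was higher by 0.15 and DGCR8 was lower with -0.47 (limma adjusted p = 0.0389). The 3 DGCR8 ratios there were -0.21, -0.29 and -0.91, and the second DGCR8 probe averaged 0.084 on these arrays. In miR-766, EIF2C1 and RNASEN were higher, both by 0.14. For miR-565, with 2 arrays left, no member gene was called. Of the 10, 1 had an unadjusted p under 0.05, beside 7063 of 23005 genes.

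**Figure D3:**
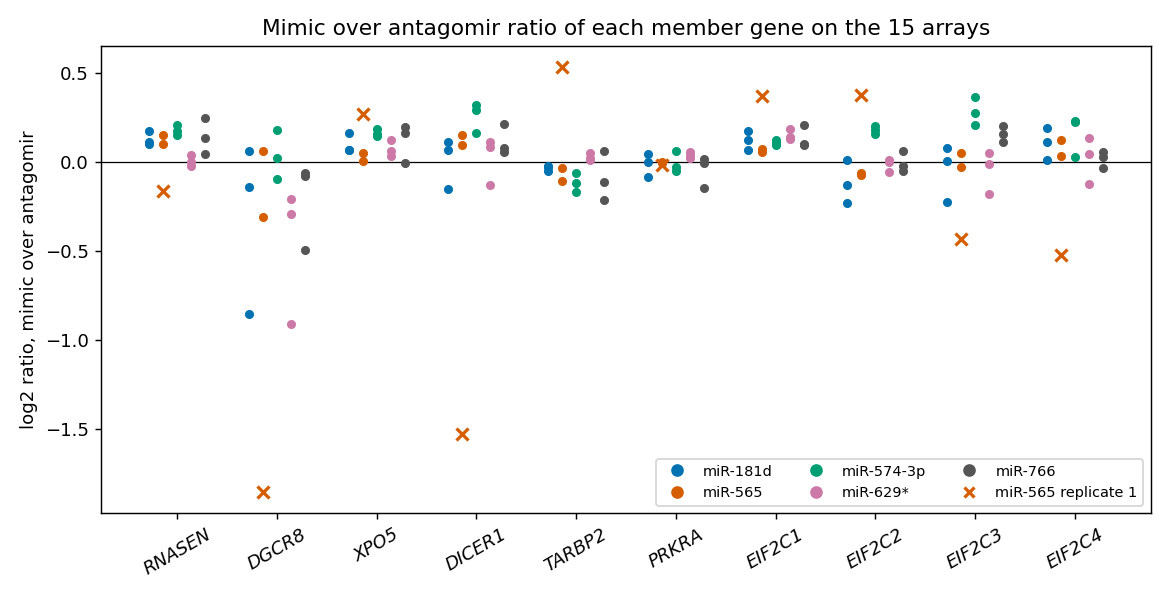
Log2 ratio of mimic over antagomir signal (y axis) of the brightest probe of each member gene (x axis) on the 15 arrays, colored by miRNA; crosses are miR-565 replicate 1. EIF2C1 lies above 0 on all 15 arrays, and the crosses of DGCR8 and DICER1 lie at -1.85 and -1.53.

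Several members had the same sign in nearly all arrays. The mean of the ratios over the 5 miRNAs was 0.14 for EIF2C1 (standard error 0.027, limma adjusted p = 0.00133). Its log2 ratio ranged from 0.058 to 0.37 with a median of 0.12, and was above 0 on 15 of 15 arrays. XPO5 averaged 0.11 (standard error 0.028, limma adjusted p = 0.00541) and was above 0 on 14 of 15 arrays, between -0.0045 and 0.27. RNASEN averaged 0.099 (standard error 0.025, limma adjusted p = 0.00744), with 13 of 15 arrays above 0 and a range from -0.16 to 0.25. The mean ratio of DGCR8 was -0.33 (standard error 0.12, limma adjusted p = 0.0475), with 4 of 15 arrays above 0. It was -0.22 without miR-565 replicate 1, and DGCR8 lost this call under 16 of 25 alternatives. EIF2C1 lost its call when its 2 probes were averaged, at 0.096 (limma adjusted p = 0.155), and the dim second probe was above 0 on 5 of the 14 arrays other than miR-565 replicate 1. In all, 4 of 10 member genes were called, 3 higher and 1 lower, beside 41.7% of all genes (23.1% higher, 18.5% lower), a share near theirs. The median of the 10 means was 0.032 and that of all genes 0.014. Because every mimic sample carried Cy5, a ratio common to all arrays cannot be told apart from a dye effect of the probe. With the slide as a random block, 0 of the 10 genes were called, and the correlation within slides was 0.73. Without miR-565 replicate 1, 8 of 10 genes were called, 6 higher and 2 lower, beside 57.9% of all genes (31.8% higher, 26.2% lower). DICER1 then averaged 0.11, EIF2C3 0.073, EIF2C4 0.077 and TARBP2 -0.054.

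The DICER1 partners had small ratios. TARBP2 ranged from -0.21 to 0.066 over the 14 arrays other than miR-565 replicate 1, with a median of -0.031 over all 15 arrays. PRKRA ranged from -0.14 to 0.062 over all 15 arrays and averaged -0.0040 (standard error 0.021, limma adjusted p = 0.894). EIF2C4 lay between -0.52 and 0.23 with its brightest probe. Its second probe, with a mean signal of 59.1 in the mimic channel, lay between -0.14 and 0.49. Its mean ratio over the 5 miRNAs was 0.20 (standard error 0.048, limma adjusted p = 0.00547), while that of the brightest probe was 0.037 (limma adjusted p = 0.55), and on miR-565 replicate 1 the 2 probes stood at 0.14 and -0.52.

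On miR-565 replicate 1, 12 of the 14 tested member probes lay outside the range of the other 14 arrays, 6 below and 6 above. The share of all probes outside that range was not counted, so this is not shown to be particular to these genes. The departure was in the mimic channel. After quantile normalization, DICER1 had a log2 mimic signal of 8.29 there, against 9.61 to 10.03 on the other 14 arrays, while its antagomir signal of 9.77 lay within 9.67 to 9.93. DGCR8 had 8.31 against 9.42 to 10.49. In the opposite direction, TARBP2 had a mimic signal of 11.09 against 10.44 to 10.69 and EIF2C2 had 10.76 against 10.16 to 10.38. The ratios were -1.85 for DGCR8, -1.53 for DICER1, 0.54 for TARBP2 and 0.38 for EIF2C2. The array also had the lowest share of probes above background in the mimic channel, 68.1%, whereas its 70.5% in the antagomir channel was within the range of the others. The part of RNA quality or labeling in these values was not tested.

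The probes of DGCR8 differed in this. The brightest, at chr22:18454131-18454190 (NCBI36, plus strand), gave log2 ratios under -0.8 on 3 arrays, namely -1.85 on miR-565 replicate 1, -0.91 on miR-629* replicate 3 and -0.86 on miR-181d replicate 1. The second DGCR8 probe, at chr22:18478916-18478975, gave 0.38, 0.064 and 0.28 on the same arrays, and over all 15 arrays stayed between -0.048 and 0.38. The outer ends of the 2 probes are 24845 bases apart on the genome. DGCR8 is thus called lower in the mean ratio with 1 probe and not with the other, whose mean was 0.076 (limma adjusted p = 0.1003). Both DICER1 probes were low on miR-565 replicate 1, at -1.53 and -0.91, although by different amounts. The brightest DICER1 probe lies at chr14:94625986-94626045 and the other spans chr14:94627185-94627337 (NCBI36, minus strand). On miR-181d replicate 1 and miR-629* replicate 3, where DGCR8 was low, the brightest DICER1 probe had its next lowest ratios, -0.15 and -0.13. The calls on these genes depend on which probe is read, and the reason was not tested. For this the DGCR8 probe with the extreme values and the second, dimmer DICER1 probe are shown, as the array files give them.
DGCR8 A_24_P113521: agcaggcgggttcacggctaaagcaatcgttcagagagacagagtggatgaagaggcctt
DICER1 A_24_P22163: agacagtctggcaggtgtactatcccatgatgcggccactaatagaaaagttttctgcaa

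**Figure D4:**
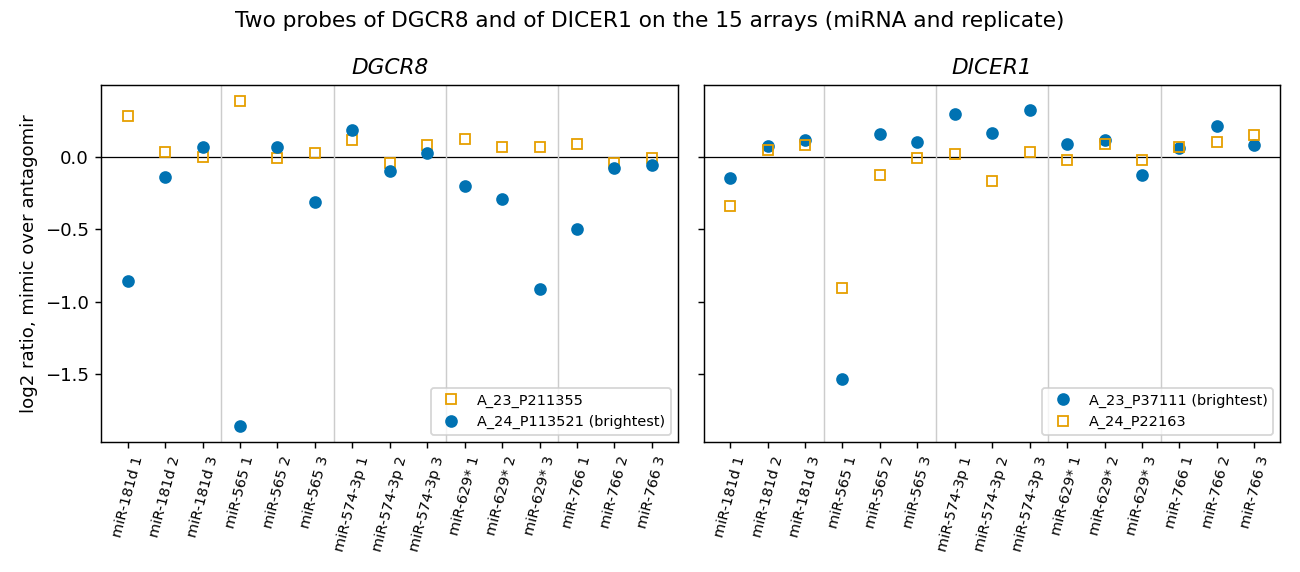
Log2 ratio of mimic over antagomir signal for the 2 probes of DGCR8 (left) and of DICER1 (right) on each of the 15 arrays (x axis, miRNA and replicate number); filled points are the brightest probe. The 2 DGCR8 probes part most on miR-181d 1, miR-565 1 and miR-629* 3, and less on others such as miR-766 1 (-0.50 against 0.088). Both DICER1 probes fall on miR-565 1.

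The genes that work with the members were measured as 4 lists, namely silencing partners of Argonaute, regulators of processing, factors of mRNA decay and the PIWI clade. Of these, 47 genes were tested, 15 in each of the first 3 lists and 2 of the PIWI clade. In the ratio, 14 of their 235 gene and miRNA pairs were called, 6 higher and 8 lower in the mimic samples, where 2.3% to 14.3% of all genes were called per miRNA. Without miR-565 replicate 1 the count was 73, 40 higher and 33 lower, where 16.3% to 36% of all genes were called. By list, the 14 pairs were 6 for the silencing partners, 4 for the regulators of processing, 4 for mRNA decay and 0 for the PIWI clade. Against the mean of the other miRNAs, 0 of the 235 pairs were called in limma with all arrays and 4 without miR-565 replicate 1, 2 higher and 2 lower. TNRC6C, a GW182 protein that joins Argonaute to the deadenylases, had a log2 ratio of -0.46 in miR-574-3p (limma adjusted p = 0.00364) and of -0.31 in miR-181d (limma adjusted p = 0.0294), the latter -0.19 without miR-181d replicate 1. TNRC6C was below 0 on every array and averaged -0.28 over the 5 miRNAs. In the miR-574-3p antagomir channel TNRC6C was higher than in the other antagomirs, by 0.30 (limma adjusted p = 0.00219), the reverse of EIF2C2 and EIF2C3. A second TNRC6C probe, which was dim, gave 1.67 for miR-574-3p (limma adjusted p = 0.0416), opposite to the brightest.

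CNOT1, the scaffold of the CCR4-NOT deadenylase, had a ratio of 0.42 in miR-574-3p (limma adjusted p = 0.0111) and was lower in the miR-574-3p antagomir samples, with a difference of -0.35 (limma adjusted p = 8.1e-05). The decapping cofactor DCP1A had the same signs, with a ratio of 0.24 (limma adjusted p = 0.0199) and an antagomir difference of -0.13 (limma adjusted p = 0.0119). In that antagomir comparison 5 of the 15 mRNA decay genes were called, 2 higher and 3 lower, beside 8.5% of all genes. The median difference of the 15 was -0.0076. Over the 4 lists, 8 of 235 antagomir pairs were called, 4 higher and 4 lower, beside 0.869% to 8.5% of all genes per miRNA. FXR2, an RNA-binding relative of FMR1, had a log2 ratio of -0.51 in both miR-181d and miR-629* (limma adjusted p = 0.0434 and 0.0328), and of -0.52 in miR-766 (limma adjusted p = 0.068). Its ratio was below 0 on all arrays except miR-565 replicate 1, and averaged -0.41 over the 5 miRNAs. RNH1, the ribonuclease inhibitor, had -0.16 in miR-181d and -0.20 in miR-629* (limma adjusted p = 0.035 and 0.0125), and -0.13 to -0.15 in the other miRNAs. It was below 0 on every array and averaged -0.16, so these ratios of FXR2 and RNH1 are common to the miRNAs and cannot be told apart from a dye effect. With the mean of its probes RNH1 stood at -0.074 and -0.045 in miR-181d and miR-629*, neither called, and CNOT1 in miR-574-3p at 0.15 (limma adjusted p = 0.206). In miR-565 the exonuclease XRN2 had a log2 ratio of -0.33 (limma adjusted p = 0.0398), and -0.15 without replicate 1 (limma adjusted p = 0.179). LIN28, which blocks the maturation of let-7, was dim. In miR-766 it was not well above background in the mimic channel on any of 3 arrays, and its antagomir signal was 8.88, 11.1 and 12.6, at least 1.96-fold higher (limma adjusted p = 0.0195 for the ratio). With normexp and loess its log2 ratio was -0.16 (limma adjusted p = 0.127). The LIN28 ratio was below 0 on all arrays except miR-565 replicate 1, with -1.02 on miR-181d replicate 1 and -1.62 on miR-565 replicate 2. LIN28 in miR-766 was not called against the other 4 miRNAs. Its lower ratio there cannot be told apart from a dye effect common to the arrays. With the slide as a random block, the ratios named for these genes no longer passed the test, except that of FXR2 in miR-181d.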

How the data were processed

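The authors deposited the output of Agilent Feature Extraction 9.5.3.1 for each array. Its processed signal intensity per channel had been corrected for background and normalized between dyes by LOWESS by the authors' software. The deposited mean and background intensity values are not normalized. The authors' log10 ratio per spot equals the deposited series table, with a largest difference of 0.

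In R 4.3.3, 1639 control spots per array and 2296 outlier spots were left out, spots of a probe were averaged, and the log2 ratio of processed signals was fitted with limma 3.58.1, using lmFit and then eBayes with its trend option (Benjamini-Hochberg over the 31345 probes that were above background on 3 or more arrays, counting either channel). A call is an adjusted p under 0.05. The fit holds 1 coefficient per miRNA, tested against 0, against the other 4, or averaged. Channels were quantile normalized within dye. For counts of genes, the brightest probe was used. The normexp offset was 50. The fold given for LIN28 used Aquantile-scaled signals, with the lowest signal above background on each array as floor. On simulated miR-574-3p ratios of 31345 probes, 69% of changes of size 1 (log2) and 14% of size 0.3 were recovered, and 12 of 95 calls were false. The number of arrays limits the precision. Members, lists and tests were chosen with earlier results of these data known. All 10 members are named, with the 8 pathway genes of smallest adjusted p in a single ratio, of which 1 is not reported here. Alternatives were other background corrections, scalings, filters, blocks and each array left out.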

Additional observations from a re-analysis of the deposited data

Results flagged for a closer look

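TARBP2, the DICER1 partner, was the member gene for which all 3 arrays of one miRNA lay on one side of 0 and all 3 arrays of another on the opposite side. Its log2 ratios were -0.049, -0.024 and -0.019 in miR-181d, -0.059, -0.12 and -0.17 in miR-574-3p, and 0.026, 0.014 and 0.051 in miR-629*. The mean ratio of miR-181d minus that of miR-629* was -0.061, and that of miR-574-3p minus that of miR-629* was -0.15. These pairwise differences were not tested. TARBP2 was found by screening every member gene over all pairs of miRNAs. The share of all genes with such a split was not counted.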

How the results depend on the processing

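The lower EIF2C2 and EIF2C3 signals with the miR-574-3p antagomir kept their direction and their side of the threshold under all 23 alternatives, at -0.28 to -0.22 and -0.38 to -0.26 (adjusted p 3.4e-05 to 0.00592 and 0.000555 to 0.0482). Several of these alternatives could not move the estimates. Both genes have 1 probe, so averaging probes left their estimates unchanged, as did the filters, the intensity trend and the replicate block. The count in the antagomir channel, 4, became 9 with medians in place of quantile normalization, 2 when probes of a gene were averaged and 11 with the slide as a random block, and 3 to 4 without an array. In this channel the correlation within slides was negative, -0.23, and the lowest adjusted p of EIF2C2 and EIF2C3 came from that slide fit. In the mimic channel, 0 became 3 with the slide. In the ratio, 0 became 1 with normexp and loess, 5 with median centring (all higher), 8 with only the 3 arrays, and 0 to 13 without an array, the latter 13 without miR-565 replicate 1, 3 without its replicate 2 and 1 without its replicate 3. Against the other 4 miRNAs, 0 became 3 with the slide and 0 to 2 without an array. In the mean ratio, 4 became 0 with the slide, 2 with normexp and loess, and 3 to 8 without an array, and DGCR8 kept its call under 9 of 25 alternatives. For the pathway genes, 14 became 8 with no intensity trend, 7 with the mean of probes, 5 with the slide, 40 with only the 3 arrays and 4 to 73 without an array. Among all these alternatives, the share of all genes called was counted only without miR-565 replicate 1. The other counts therefore cannot be set against a background. TNRC6C reversed to 0.54 (miR-181d) and 0.60 (miR-574-3p) with the mean of its 2 probes, of which one is dim. Other causes were not tested. With the replicate number as a block, 0 ratios, 0 differences from the other 4, 0 mimic pairs, 4 mean ratios, 4 antagomir pairs and 13 pathway pairs were called, and RNH1 (adjusted p = 0.057) and FXR2 (adjusted p = 0.0517) lost the call in miR-181d. Whether the numbers pair the arrays was not settled. After subtraction of the mean of each miRNA, same-numbered arrays correlated at -0.39 to 0.51 (median 0.057), 13 of 30 pairs over 0.1. The median for different numbers was -0.046, and 7 of 15 arrays correlated best with their own number. Dim probes, such as those of LIN28, limit what signal over background can show.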
